A study of Mus musculus with 2 samples.

Results

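The 42 genes described here make cyclic AMP, break it down or carry its signal through protein kinase A, the CREB factors and the cAMP-gated exchange factors. They were chosen by symbol and make up 9 adenylyl cyclases, 2 catalytic and 4 regulatory subunits of protein kinase A, 3 kinase inhibitors, 16 phosphodiesterases, 3 CREB factors, 3 CREB coactivators and 2 exchange factors. All 42 were found among the 55536 GENCODE genes of the gene table, and all 42 in the second transcript table. Adrenal glands came from females of the F1 hybrid strain B6CASTF1/J at 14 days of age, with no treatment named. Total RNA (300 ng per library, ribosomal RNA reduced, ERCC spike-in RNAs added) gave 1 group of 2 libraries, biological replicates 1 and 2. The tissue label of replicate 1 names a pool of 3 females and that of replicate 2 one female, but both libraries share a donor identifier and a library description that names the pool. Separate animals were therefore not established, and differences between the libraries may be technical in part.

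In the adrenal cortex, corticotropin acts through its receptor and the stimulatory G protein on adenylyl cyclases. The cyclic AMP they make releases the catalytic subunits of protein kinase A from the regulatory subunits, which raises steroid output, and phosphodiesterases end the signal. In chromaffin cells of the medulla, cyclic AMP also acts on catecholamine synthesis and release. The balance of these proteins in the cortex is known from human disease: PRKACA, PRKAR1A, PDE8B and PDE11A are all mutated in forms of adrenal hyperplasia or adenoma.

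The gene tables summed to 37586172 expected counts in replicate 1 and 33844950 in replicate 2, of which the 42 genes took 0.204% and 0.157%. Adrenal markers were present: all 12 cortex markers stood at or above 1 TPM in the mean, with a summed level of 10107 TPM (a length-normalised unit relative to all entries of the table) in replicate 1 and 4364 TPM in replicate 2, and so were all 12 chromaffin markers, at 1816 and 828 TPM. Liver, skeletal muscle and T cell markers differed far more between the libraries. The 11 liver markers found summed to 374 TPM in replicate 1 and 21292 in replicate 2, and the 10 skeletal muscle markers to 27.9 and 643 TPM. The 12 T cell and thymocyte markers summed to 54.9 TPM in replicate 1 and 2.33 in replicate 2, and the 5 erythroid markers to 5923 and 1793 TPM. No gene of any marker list was at 0 in both libraries. In RNA from whole tissue, fewer cells of a type and less RNA per cell cannot be told apart.

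Stretches of sequence upstream of annotated starts are shown for 4 genes: Prkaca, the dominant catalytic subunit, Prkar1a, whose start differed between the transcript tables, and Pde8b and Pde2a, the leading phosphodiesterases, which used mainly their first and second start groups. The letters are from RefSeq promoter windows on GRCm38.p6, the assembly also called mm10, and run 5′ to 3′ on the gene's strand up to the first annotated exon base or the annotated start. For Prkar1a and Pde8b the second start group also holds a start upstream of the stretch printed. Capitals mark 3 kinds of letters, each searched on both strands. The half-site of a cyclic AMP response element reads TGACG, and is printed as its reverse complement where it lies on the other strand. The CCAAT box is the name and the letters of another promoter element. The GC box, which Sp1-type factors bind, reads GGGCGG.
Prkaca, first start group, chr8:83972728-83972977 on the plus strand: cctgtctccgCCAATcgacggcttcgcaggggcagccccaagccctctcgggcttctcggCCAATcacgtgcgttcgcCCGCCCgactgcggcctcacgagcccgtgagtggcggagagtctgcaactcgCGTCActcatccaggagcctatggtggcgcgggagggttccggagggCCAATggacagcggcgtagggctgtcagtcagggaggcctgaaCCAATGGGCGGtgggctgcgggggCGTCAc
Prkar1a, second start group, chr11:109650699-109650920 on the plus strand: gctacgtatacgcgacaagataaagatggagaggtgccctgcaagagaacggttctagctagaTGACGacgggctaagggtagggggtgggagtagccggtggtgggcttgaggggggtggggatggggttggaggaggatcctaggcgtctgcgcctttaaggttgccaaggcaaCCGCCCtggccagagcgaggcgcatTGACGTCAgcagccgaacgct
Pde8b, first start group, chr13:95250337-95250586 on the minus strand: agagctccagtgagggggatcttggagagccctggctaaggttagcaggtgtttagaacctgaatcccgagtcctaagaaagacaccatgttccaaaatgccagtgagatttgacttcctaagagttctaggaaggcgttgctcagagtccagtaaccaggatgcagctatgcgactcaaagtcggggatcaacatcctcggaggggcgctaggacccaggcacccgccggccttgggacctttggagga
Pde8b, second start group, chr13:95223093-95223342 on the minus strand: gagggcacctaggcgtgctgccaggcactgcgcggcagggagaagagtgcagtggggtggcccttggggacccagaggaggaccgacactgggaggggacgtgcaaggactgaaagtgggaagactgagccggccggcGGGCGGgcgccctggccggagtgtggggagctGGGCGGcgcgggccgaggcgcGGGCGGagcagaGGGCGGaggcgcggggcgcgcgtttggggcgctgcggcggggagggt
Pde2a, first start group, chr7:101421441-101421690 on the plus strand: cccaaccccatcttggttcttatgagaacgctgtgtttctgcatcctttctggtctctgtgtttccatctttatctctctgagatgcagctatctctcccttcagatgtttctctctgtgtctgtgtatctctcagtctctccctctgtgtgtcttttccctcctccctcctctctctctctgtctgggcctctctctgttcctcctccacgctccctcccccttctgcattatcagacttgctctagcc
Pde2a, second start group, chr7:101450270-101450519 on the plus strand: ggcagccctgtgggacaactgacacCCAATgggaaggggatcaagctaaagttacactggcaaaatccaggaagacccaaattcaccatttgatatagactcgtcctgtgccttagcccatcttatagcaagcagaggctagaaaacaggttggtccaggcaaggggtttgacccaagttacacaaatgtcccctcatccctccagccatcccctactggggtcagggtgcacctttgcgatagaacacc

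The Prkar1a stretch holds the full palindromic element TGACGTCA, at chr11:109650900-109650907, which contains overlapping half-sites on both strands. Of the 32851 RefSeq promoter windows (250 bases before to 50 after a start, either strand) 1.79% hold these 8 letters, and among the 34 of the 42 genes that have a window in the table Prkar1a alone does. The half-site is far commoner, at 20.8% of all windows. It occurs in at least 1 window of 16 of those 34 genes, and in 18 of their 74 windows. The Prkaca stretch holds 2 half-sites, 4 CCAAT boxes and 2 GC boxes, the last CCAAT box running straight into a GC box. The Pde8b stretches differ in base composition, with 54.4% G or C and no marked letters at the first start group, against 75.6% and 4 GC boxes at the second. The Pde2a stretches have 50.8% and 51.6% G or C, with no marked letters at the first and 1 CCAAT box at the second. The windows of both genes also cover bases that are not printed. Counting these, Pde8b and Pde2a each held at least 1 half-site. Pde8b also held at least 1 CCAAT box, and Pde2a at least 1 GC box. The match of letters is a description of sequence; nothing here measured binding of a factor.

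Of the 42 genes, 35 stood at or above 1 TPM in the mean of the libraries (83.3%), against 57.1% of 21991 protein-coding genes. Their median was 10.3 TPM, against 8.46 TPM for all protein-coding genes at or above 1 TPM. Levels below are gene table TPM, which are per length and so can be compared between genes. The highest levels belonged to Prkar2b, Prkar1a, Prkaca and Rapgef4, in that order in both libraries. In the second transcript table Prkaca (94.0 TPM) stood above Prkar1a (90.6 TPM) in replicate 2. The 7 genes under 1 TPM were Adcy1, Adcy2, Adcy8, Pkib, Pde1c, Pde4c and Pde11a.

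**Figure D1:**
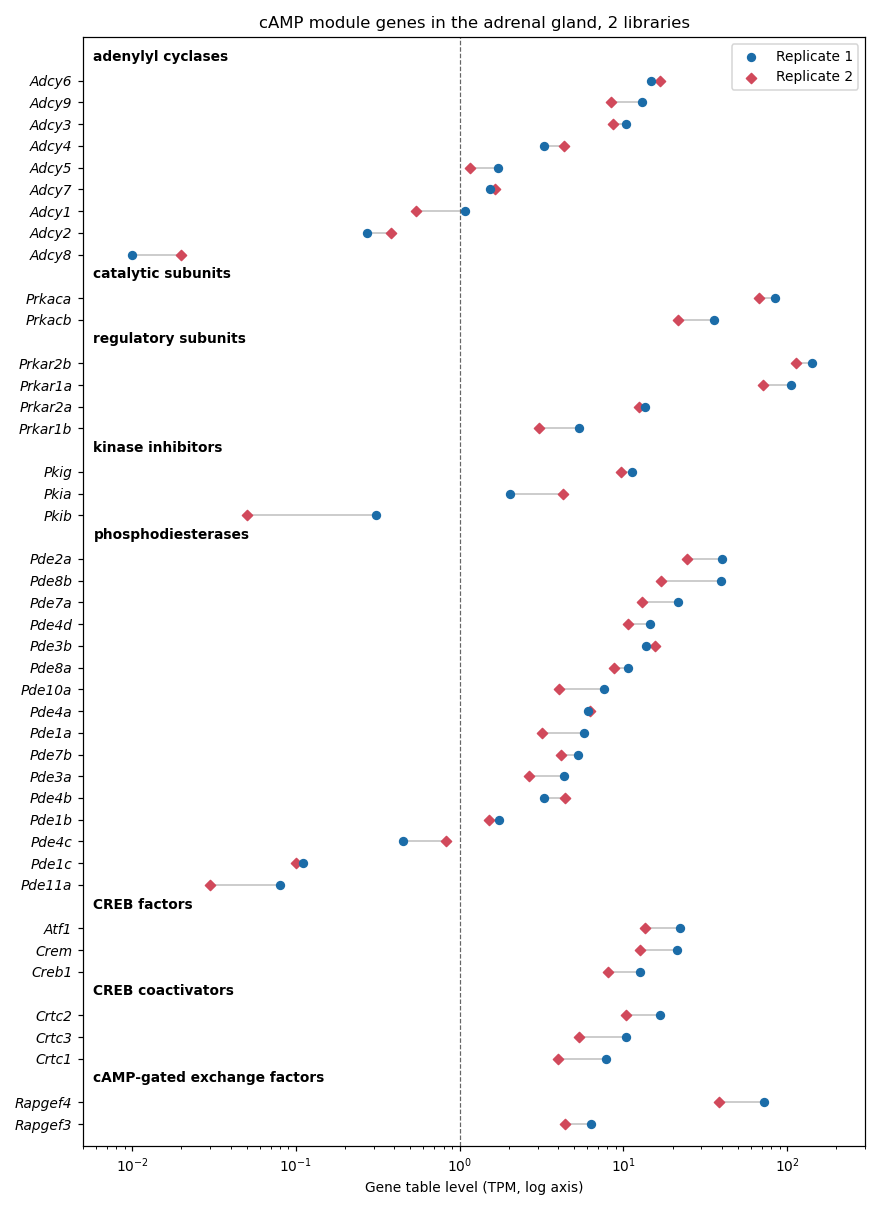
Level of each of the 42 genes in replicate 1 (blue circles) and replicate 2 (red diamonds), in TPM on a log axis, grouped by class and ordered by replicate 1 within each class; the dashed line marks 1 TPM. Prkar2b is the highest gene in both libraries (141 and 113 TPM) and Adcy8 the lowest (0.01 and 0.02 TPM).

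Adenylyl cyclases, the membrane enzymes that make cyclic AMP from ATP, were led by Adcy6, Adcy9 and Adcy3. Adcy6, a cyclase inhibited by calcium, stood at 14.8 TPM in replicate 1 and 16.7 in replicate 2 (15.7 ± 1.37, SD, n = 2). Adcy9, a widely expressed cyclase that responds little to forskolin, had 13.0 TPM in replicate 1 and 8.42 in replicate 2. Adcy3, best known for its part in olfactory signalling, had 10.4 and 8.69 TPM. Adcy6 took 32.1% of the summed cyclase TPM in replicate 1 and 39.8% in replicate 2. Adcy9 and Adcy3 changed places between the libraries, so their order was not settled, while Adcy6 led in both.

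A second tier of cyclases lay well below. Adcy4 had 3.26 TPM in replicate 1 and 4.35 in replicate 2, Adcy5, another calcium-inhibited form, 1.71 and 1.15 TPM, and Adcy7 1.54 and 1.65 TPM. The calmodulin-stimulated Adcy1 had 1.08 TPM in replicate 1 and 0.54 in replicate 2, on 453 and 215 counts. Adcy2 had 0.27 and 0.38 TPM on 39 and 52 counts. Adcy8, also a calmodulin-stimulated form, was near the limit of detection, with 2 counts in replicate 1 and 5 in replicate 2.

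Protein kinase A catalytic subunits were dominated by Prkaca (chr8:83972993-83996443, plus strand), which encodes the alpha form. It had 84.6 TPM in replicate 1 and 67.0 in replicate 2 (75.8 ± 12.5, SD, n = 2). Prkacb, the beta form, had 35.6 and 21.6 TPM. Prkaca therefore exceeded Prkacb 2.38-fold in replicate 1 and 3.10-fold in replicate 2, and 2.09-fold and 2.48-fold by the second transcript table, and made up 70.4% and 75.6% of the catalytic TPM.

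Regulatory subunits, which hold the catalytic subunits inactive until cyclic AMP binds them, summed to 266 TPM in replicate 1 and 200 in replicate 2. That is 2.21 and 2.26 times the catalytic sum, against ratios of 2.13 and 2.14 by the second table. Prkar2b (chr12:31958476-32061296, minus strand), the type II beta subunit, was the highest of all 42 genes, with 141 TPM in replicate 1 and 113 in replicate 2 (127 ± 19.7, SD, n = 2). Prkar1a (chr11:109649405-109669656, plus strand), the type I alpha subunit, had 106 and 70.9 TPM. Prkar2a, the type II alpha subunit, stood at 13.6 and 12.4 TPM, and Prkar1b, the type I beta form known mainly from brain, at 5.38 and 3.04 TPM.

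The order of the 4 regulatory subunits was the same in both libraries. Prkar2b exceeded its alpha counterpart Prkar2a 10.4-fold in replicate 1 and 9.13-fold in replicate 2. Prkar1a exceeded its beta counterpart Prkar1b 19.7-fold in replicate 1 and 23.3-fold in replicate 2, though in the second table by 9.58 and 17.4. Prkar1b shares exon bases with the gene Gm15672 on the same strand, so that counting could split its reads. Type I subunits together had 0.718 times the TPM of type II subunits in replicate 1 and 0.588 times in replicate 2.

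Among the heat-stable inhibitors, small proteins that block the free catalytic subunit and carry it out of the nucleus, Pkig led with 11.3 TPM in replicate 1 and 9.67 in replicate 2 (10.5 ± 1.17, SD, n = 2). Pkia, the form first purified from rabbit skeletal muscle, had 2.04 TPM in replicate 1 and 4.29 in replicate 2. Pkib had only 10 and 5 expected counts. Every member of the module had a higher mean level in the second table. Pkig had 26.9 and 23.4 TPM there. Pkib reached 1.84 and 0.84 TPM, of which the retained-intron transcript Pkib-205 took 62.6% and 75.6%. The inhibitors summed to 13.7 and 14.0 TPM, so the catalytic subunits exceeded them 8.79-fold in replicate 1 and 6.32-fold in replicate 2. By the second table they did so 5.32-fold and 4.35-fold.

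**Figure D2:**
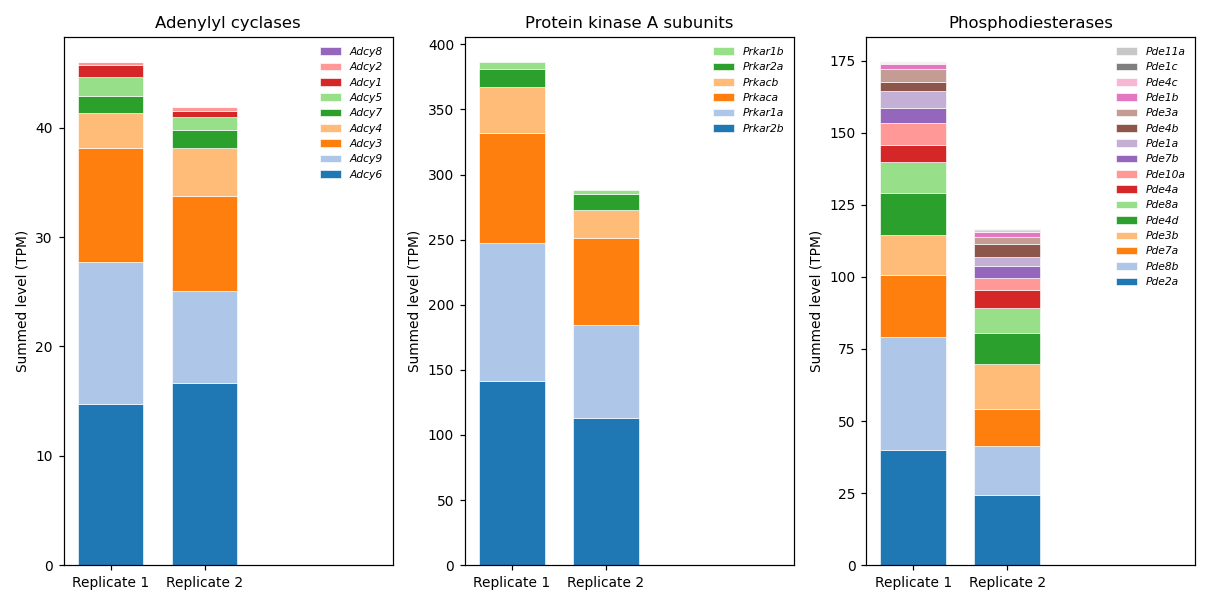
Summed TPM of adenylyl cyclases, protein kinase A subunits and phosphodiesterases in replicate 1 (left bar of each panel) and replicate 2 (right bar), stacked by gene with the highest mean at the bottom; axes start at 0 and differ between panels. Prkar2b and Prkar1a form the base of the kinase bars, while the highest share of any phosphodiesterase is the 22.8% of Pde2a in replicate 1.

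Phosphodiesterases, which hydrolyse cyclic AMP, were spread over many genes. The 16 summed to 174 TPM in replicate 1 and 117 in replicate 2, and 13 of them were at or above 1 TPM. Pde2a (chr7:101421691-101512827, plus strand), a cGMP-stimulated enzyme known from the zona glomerulosa, had 39.8 TPM in replicate 1 and 24.4 in replicate 2 (32.1 ± 10.9, SD, n = 2). Pde8b (chr13:95024454-95250336, minus strand), a high-affinity enzyme that restrains steroid output in the mouse adrenal cortex, had 39.3 and 16.9 TPM (28.1 ± 15.9). Together with its close relative Pde8a, at 10.6 and 8.74 TPM, the Pde8 family made up 28.6% of the phosphodiesterase TPM in replicate 1 and 22% in replicate 2.

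Summed over all transcripts, the order of Pde2a and Pde8b was not settled. Their ratio was 1.01 in replicate 1 and 1.44 in replicate 2 in the gene table, but 0.815 and 1.08 in the second transcript table, where Pde7a also stood above Pde2a in replicate 2 (25.7 against 23.5 TPM). Pde2a shares exon bases with the same-strand gene Gm45837, and its level is uncertain to that extent.

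Pde7a, a high-affinity cyclic AMP enzyme, had 21.6 TPM in replicate 1 and 13.0 in replicate 2 (41.2 and 25.7 TPM in the second table), and its relative Pde7b 5.29 and 4.18 TPM. Of the cGMP-inhibited Pde3 enzymes, Pde3b, known from fat and liver as the enzyme through which insulin lowers cyclic AMP, had 13.7 and 15.5 TPM, and Pde3a 4.33 and 2.64 TPM. The Pde3 family held 10.4% of the phosphodiesterase TPM in replicate 1 and 15.6% in replicate 2.

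The Pde4 enzymes, the cyclic AMP-specific family blocked by rolipram, were led by Pde4d, at 14.7 TPM in replicate 1 and 10.8 in replicate 2. Pde4a had 6.09 and 6.28 TPM, Pde4b 3.28 and 4.43 TPM, and Pde4c 0.45 and 0.83 TPM. The family's share was 14.0% in replicate 1 and 19.1% in replicate 2. Pde10a, an enzyme of both cyclic nucleotides best known from the striatum, had 7.58 and 4.02 TPM. The calmodulin-activated Pde1 genes were lower still, with Pde1a at 5.79 and 3.17 TPM, Pde1b at 1.74 and 1.52 TPM, and Pde1c at 0.11 and 0.10 TPM on 22 and 13 counts.

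Pde11a, whose human counterpart is mutated in some patients with adrenal hyperplasia, had 8 counts in replicate 1 and 2 in replicate 2, or 0.08 and 0.03 TPM. This level lies close to the floor of 3 counts per library.

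CREB factors, which bind response elements and are phosphorylated by the kinase, were of like level. Atf1 had 22.1 TPM in replicate 1 and 13.6 in replicate 2 (17.8 ± 5.98, SD, n = 2), Crem 21.3 and 12.6 TPM, and Creb1 12.6 and 8.06 TPM. In the second table Atf1 had 44.5 and 24.4 TPM. The order was the same in both libraries, although Atf1 and Crem differed by less than either varied between them. Among the CREB coactivators, which enter the nucleus once dephosphorylated, Crtc2 had 16.8 and 10.4 TPM, Crtc3 10.4 and 5.38 TPM, and Crtc1 7.88 and 4.00 TPM. In the second table Crtc3 (22.1 TPM) stood above Crtc2 (19.9 TPM) in replicate 1, so their order was not settled.

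The exchange factors, which switch on the small GTPase Rap when they bind cyclic AMP, were by gene table level almost all Rapgef4 (chr2:71981240-72257474, plus strand). This gene, which encodes Epac2, had 72.6 TPM in replicate 1 and 38.3 in replicate 2 (55.4 ± 24.3, SD, n = 2). Rapgef3, which encodes Epac1, had 6.35 and 4.40 TPM. Rapgef4 thus made up 92.0% of the exchange factor TPM in replicate 1 and 89.7% in replicate 2. These levels sum all transcripts of a gene. Protein-coding transcripts held 12.4% and 14.5% of Rapgef4 TPM in the first transcript table, against 53.3% and 75.9% of Rapgef3 TPM. Among coding transcripts the lead of Rapgef4 was therefore smaller by that table. In the second table the coding shares were 46.2% and 41.4% for Rapgef4, and 33.0% and 48.7% for Rapgef3.

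Differences between the libraries were read from expected counts scaled by TMM (edgeR's trimmed mean of M values), as log2 of replicate 1 over replicate 2, for the 38 members with a mean count of at least 20. Adcy8, Pkib, Pde1c and Pde11a fell short of that count. Of the 38, 1 was over 1.5-fold higher in replicate 1 and 5 were over 1.5-fold higher in replicate 2, or 2.63% and 13.2%. Among all 16137 genes of that count, 8.81% were past 1.5-fold higher in replicate 1 and 14.4% past it in replicate 2. With this scaling the member shares lay below these in both directions, but not with spike-ins or total counts, given further on. The median difference of the members was 0.05, against 0.00 for all genes. A single group allows no test between conditions, and intervals below are 95% Clopper-Pearson intervals that cover counting error only.

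Pde8b was the 1 member past the fold in replicate 1. It had 3147 expected counts in replicate 1 and 1238 in replicate 2, a 1.81-fold difference (interval 1.69 to 1.93), or 0.86 on the log2 scale. Adcy1 lay just short of the line, at 0.58 on the log2 scale, and Pde1a at 0.51. The cortex markers were higher in replicate 1 past 1.5-fold in 11 of 12 cases, with a median log2 difference of 0.81 and a range of 0.50 to 1.12, and 8 of 12 chromaffin markers were too, with a median of 0.68 and a range of 0.04 to 1.21. The Pde8b value falls inside both ranges, and so do those of Adcy1 and Pde1a. The chromaffin range also holds members with smaller differences, such as Rapgef4 (0.32) and Prkar1a (0.16). Lying inside these ranges is therefore not particular to Pde8b. T cell markers (11 of 11 of sufficient count, median 4.81), erythroid markers (5 of 5, 1.34) and 2 of 6 neuron markers (0.24) were past the fold in replicate 1 too. The part of these cells in the Pde8b difference was not tested.

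The 5 members past the fold in replicate 2 were Pde4c, Pde4b, Pkia, Adcy2 and Pde3b. Pde4b had 331 counts in replicate 1 and 497 in replicate 2, and was 2.11-fold higher in replicate 2 (1.83 to 2.43). Pkia had 192 and 278 counts and was 2.03-fold higher in replicate 2 (1.69 to 2.46). Pde4c, at 48 and 79 counts, was 2.30-fold higher there (1.60 to 3.38). Adcy2, at 39 and 52 counts, was 1.86-fold higher (1.21 to 2.91), and Pde3b, at 3031 and 3241 counts, was close to the line with a log2 difference of -0.59 (fold higher in replicate 2, interval 1.43 to 1.58).

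Markers of several other tissues and cell types were higher in replicate 2 along with these 5. All 11 liver markers and all 10 muscle markers were past 1.5-fold there, with median log2 differences of -6.26 and -5.20. So were 6 of 10 fat markers (median -0.63, summed level 2704 TPM in replicate 1 and 3164 in replicate 2), 5 of 7 of stroma and capsule (-0.83, 336 and 442 TPM) and 5 of 6 of macrophages (-0.95, 26.4 and 37.8 TPM). Schwann and sustentacular markers were past it in 2 of 5 cases (-0.43, 14.6 and 20.2 TPM). Endothelial markers were past the fold in 0 of 8 cases (median -0.05, 261 and 201 TPM). The part of these cells in the differences of the 5 genes was not tested.

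**Figure D3:**
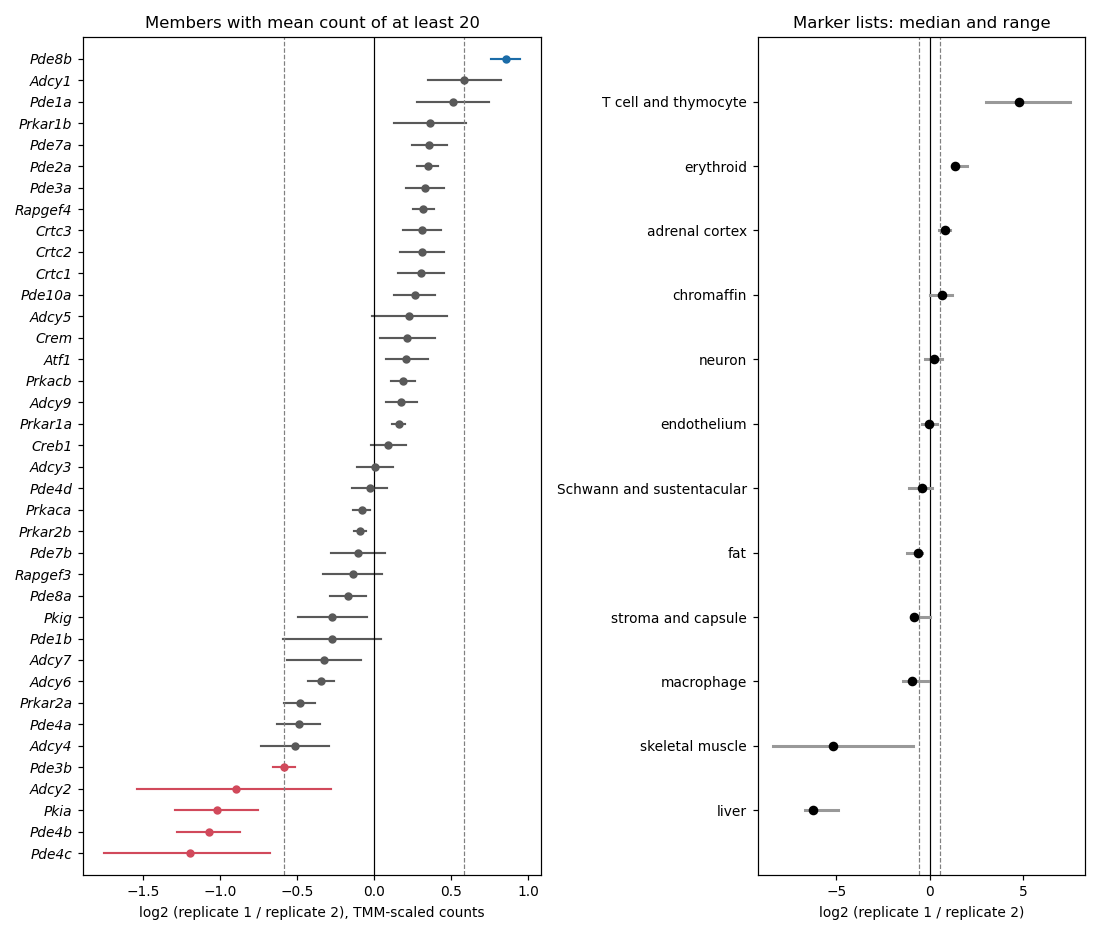
Left, log2 of replicate 1 over replicate 2 for the 38 members with a mean count of at least 20, with 95% counting intervals (blue, past 1.5-fold in replicate 1; red, past it in replicate 2); right, median (dot) and range (bar) of each marker list on the same quantity. Dashed lines mark 1.5-fold; Pde8b alone lies right of them, while liver and muscle markers lie far to the left.

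The abundant kinase subunits differed little between the libraries on this scale. Prkar2b had 12497 counts in replicate 1 and 9484 in replicate 2, a log2 difference of -0.09. Prkaca had 6374 and 4797 counts (-0.08) and Prkar1a 11118 and 7084 (0.16). The type II alpha subunit Prkar2a, with 1639 and 1631 counts, stood at -0.48, and Prkacb, with 3634 and 2273, at 0.19. All 3 coactivators lay between 0.30 and 0.31, and Rapgef4, with 4883 and 2783 counts, at 0.32.

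These differences depend on the scaling. Scaled by total counts the median of all genes was 0.34 and by ERCC spike-ins 0.28, and the member medians were 0.39 and 0.32. With spike-ins 10 of the 38 members were past 1.5-fold in replicate 1 and 4 in replicate 2, against 20.05% and 9.67% of all genes. Both member shares then lay above those of all genes. Prkaca and Prkar2b, slightly lower in replicate 1 under TMM, were higher there under spike-ins (0.19 and 0.18). Pde8b was past the fold in replicate 1 under TMM, DESeq2, total count and spike-in scaling and in the second transcript table, at 0.83 to 1.19. Pde4c, Pde4b and Pkia were past it in replicate 2 under those 4 scalings and in that table. Pde3b was short of it with total counts (-0.25), with spike-ins (-0.31) and in the second transcript table (-0.58), and Adcy2 with total counts (-0.56). Pde2a, at 0.35 in the gene table, stood at 0.59 in the second transcript table and so past the fold there.

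The transcript tables showed which starts and forms the genes used. In the second table, which gives estimated counts, transcripts annotated as protein-coding held a median of 84.3% of the TPM of the 35 members at or above 1 TPM (82.2% in replicate 1, 84.5% in replicate 2), against 87.5% for 12555 protein-coding genes. Only 17 of the 35 had the same leading transcript in both libraries and both tables, so transcripts were grouped by start: coding transcripts whose annotated starts lay within 1000 bases of a neighbour formed a start group, numbered from upstream. This grouping was chosen after the values were seen. Of the 35, 13 had 1 start group and 22 several, and in 15 of those 22 the same group led in both libraries of both tables.

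Rapgef4 drew mostly on a downstream start. The second start group (chr2:72054604) held 81.9% of its coding TPM in replicate 1 and 77.0% in replicate 2 by the second table, and 58.7% and 57.9% by the first. The transcript from that start, Rapgef4-201, has 2601 coding bases, against 3033 for Rapgef4-202 from the first. In the mouse a shorter Epac2 form that lacks the first cyclic AMP-binding domain is known from the adrenal gland. Coding transcripts held only 46.2% and 41.4% of Rapgef4 TPM in the second table, and 12.4% and 14.5% in the first, the rest going to processed transcripts without a coding frame.

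Crem likewise used a downstream start. Its sixth and last start group, which holds short transcripts such as Crem-206 and Crem-219, of 306 and 324 coding bases, held 69.7% of the coding TPM in replicate 1 and 66.7% in replicate 2 in the second table, and 85.5% and 80.9% in the first. An internal Crem promoter that cyclic AMP itself induces is known to make ICER, a short repressor of the pathway. Estimated counts of that group were 334 and 188. Linking starts within 200 bases split it, and the leading group then held 34.8% in the mean of the libraries by the second table, against 68.2%.

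Pde8b had 3 start groups, of which the first and second held most, and their balance differed between the libraries. The first group (chr13:95250274-95250336) held 65.9% of the coding TPM in replicate 1 and 53.9% in replicate 2, against 56.4% and 35.1% by the first table. The second group (chr13:95222813-95223555) held 25.8% and 36.2%, against 26.1% and 43.2% by the first table. The third (chr13:95034253) held 8.30% and 9.90%, against 17.4% and 21.7% by the first table. Estimated counts of the first group were 1910 in replicate 1 and 556 in replicate 2, a 2.28-fold difference (2.08 to 2.51), and those of the second 911 and 475, a 1.28-fold difference (1.14 to 1.43). For the third they were 193 and 83.4, a 1.54-fold difference (1.19 to 2.02). The fold difference of Pde8b was largest at the upstream start. These intervals do not cover the error of assigning reads to transcripts. Pde8b shares exon bases with the antisense gene Gm48420; in all, 9 members overlap an antisense gene, Adcy3 (Cenpo) and Rapgef4 (Rapgef4os2) among them, and whether counting used strand is not given in the sources used here.

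Pde2a favoured its second start group (chr7:101450520), with 65.1% of the coding TPM in replicate 1 and 65.0% in replicate 2, and 64.3% and 72.9% in the first table. Its coding share was low in both tables, at 43.5% and 56.8% in the second and 26% and 30% in the first. The nonsense-mediated decay transcript Pde2a-209 took 35.8% and 20.6% of Pde2a TPM in the second table, and 61.6% and 53% by the first. Pde7a had the lowest coding share of the 35 in the second table, at 26.3% and 25.5%.

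Long and short forms of the Pde4 enzymes come from separate starts. For Pde4d, the ninth of 12 start groups, Pde4d-207 with 1752 coding bases, held 62.4% of the coding TPM in replicate 1 and 56.4% in replicate 2, and 62.2% and 63.6% in the first table. The longest Pde4d transcript has 2409 coding bases. Pde4a favoured its first start, with the long Pde4a-202 of 2532 coding bases, at 70.1% and 67.4%, and 68.9% and 71.5% in the first table. For Pde4b the second of 7 groups led, at 44.8% and 46.9%, and 59.1% and 54.5% in the first table.

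Among the kinase subunits, Prkaca came from its first start at 99.6% of the coding TPM in replicate 1 and 100% in replicate 2. Prkacb came mainly from its first start, with Prkacb-202, at 54.6% and 60.7%, and 60.8% and 68.8% in the first table. For Prkar1a the tables disagreed. The first start group (chr11:109649405) held 53.7% and 66.4% in the second table but 8.3% and 8.0% in the first. There the second group (chr11:109650575-109650921) took 91.7% and 92.0%. Its starts lie on both sides of the full response element shown above. All Prkar1a transcripts that led in either table, Prkar1a-203 and Prkar1a-201, have 1143 coding bases, so the choice of start leaves the coding length as it is.

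**Figure D4:**
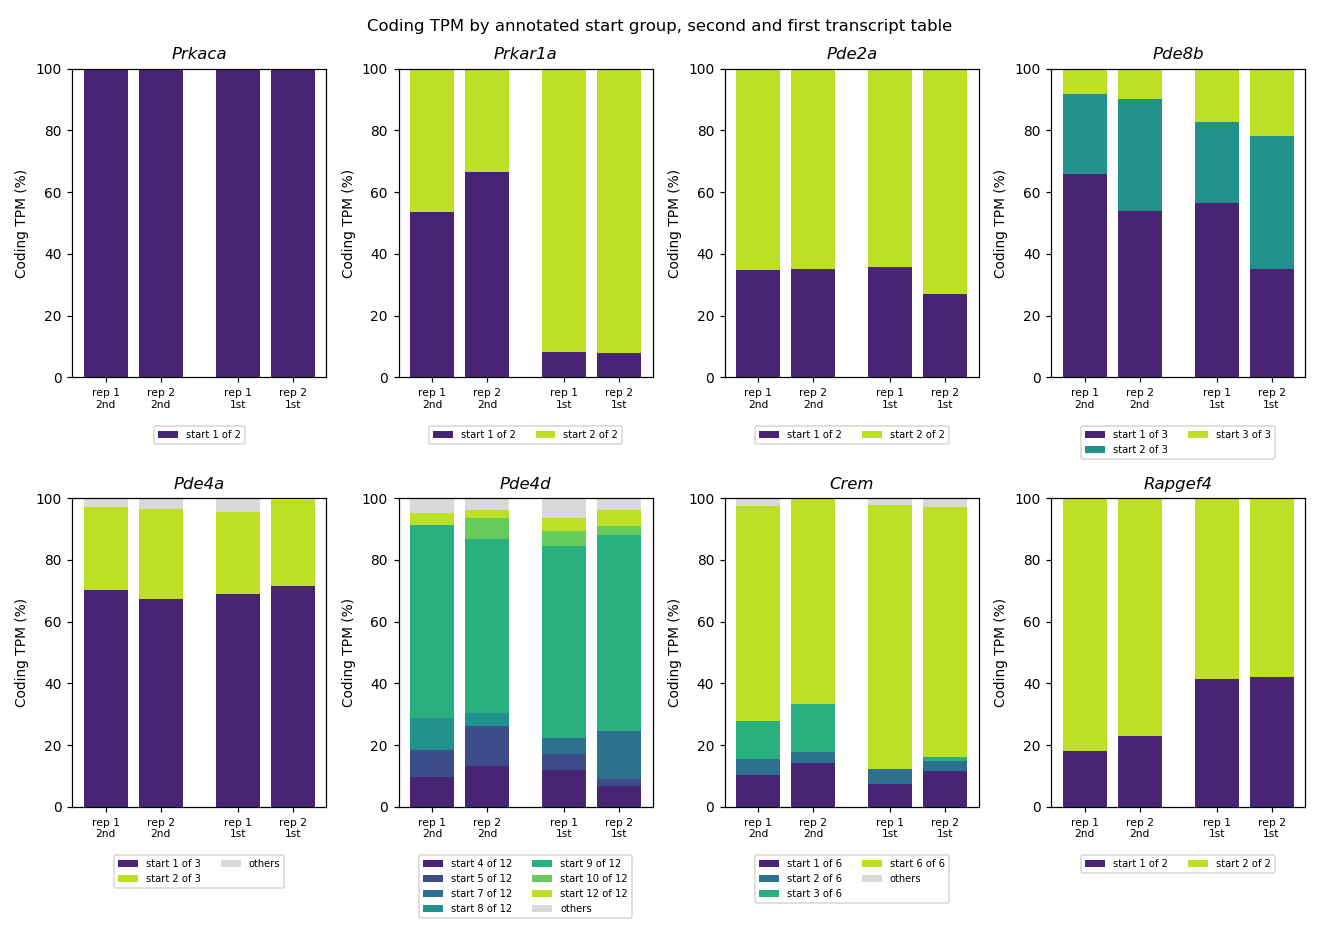
Share of coding TPM (percent) by start group, numbered from upstream, for 8 genes; in each panel the left pair of bars is the second transcript table and the right pair the first, with replicate 1 left of replicate 2 in each pair. Rapgef4, Crem, Pde2a and Pde4d draw mostly on a downstream start in all 4 bars, while the Prkar1a bars differ between tables.

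The surrounding pathway was read from 58 further genes in 5 lists, of which 45 had a mean count of at least 20. Of these, 4 were past 1.5-fold in replicate 1 and 7 in replicate 2, close to the shares of all genes (8.81% and 14.4%), with a median log2 difference of 0.09. Gnas, the gene of the stimulatory G protein, was the highest receptor or G protein gene, at 1308 TPM in replicate 1 and 1169 in replicate 2, far above any cyclase. This level sums all transcripts of the gene, which were not told apart here. In that list Mc2r, the corticotropin receptor (99.1 and 34.0 TPM), and its accessory protein Mrap (157 and 76.5 TPM) were past the fold in replicate 1, and Vipr1 (0.11 and 2.54 TPM) and Adrb1 (1.06 and 1.68 TPM) in replicate 2. These were named after their values were seen.

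Of 15 A-kinase anchors, which tether the kinase to membranes and organelles, 11 were at or above 1 TPM. Akap1, an anchor of the outer mitochondrial membrane, had 39.0 TPM in replicate 1 and 38.9 in replicate 2. Akap3, Akap4 and Akap14 were listed at 0 counts in both libraries, which at this depth allows up to 3 counts each. Of 12 anchors with enough counts, 1, Akap5, was past 1.5-fold, in replicate 2 (0.97 and 1.54 TPM). Sik2, highest of the 5 CREB partners and kinases of the coactivators, had 30.4 TPM in replicate 1 and 27.3 in replicate 2, and 0 of the 5 were past the fold. Rap1a, the GTPase that the exchange factors act on, had 56.8 and 41.6 TPM. In the list of genes named as phosphodiesterases outside the 16 members, Pde6d had the highest mean level, with 8.71 and 7.45 TPM. In that list Pde5a (10.9 and 4.86 TPM) was past the fold in replicate 1, and Pde6c (0.06 and 1.30 TPM) and Pde9a (1.44 and 2.60 TPM) in replicate 2, and among the remaining effectors Hcn2 (3.00 and 3.72 TPM) and Popdc2 (1.11 and 1.43 TPM) were past it in replicate 2.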

How the data were processed

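Total RNA-seq was analysed for 2 libraries of 1 group. Per the labels and the deposited text, the assembly was mm10, the annotation GENCODE M21 and the kit directional. Which tools and versions made the tables, and whether counting used strand, is not given in the sources used here. Per the file headers, the authors deposited a gene table and a first transcript table with expected counts and TPM (in the transcript table also each transcript's percent of its gene's TPM), and a second transcript table with estimated counts and TPM.

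Symbols came from the reference annotation of that release. Levels are gene table TPM as mean ± SD. Expected counts were rounded, scaled with edgeR 4.0.16 TMM, and compared as log2 ratios, replicate 1 on top, after adding a prior count of 0.5. Genes averaging under 20 counts and those of the mitochondrial chromosome did not enter. Library totals were 37586172 and 33844950 expected counts, so a count of 0 allows 7.98e-06% and 8.86e-06% of counts (3 counts). Intervals and floors cover counting error only. Transcript shares come from the second transcript table and starts from the annotation. Promoter windows were RefSeq's on GRCm38.p6, with 34 of 42 members matched. Every member is named; transcripts and pathway genes by rank or threshold, and 1 pathway gene is not reported here. Members and lists were chosen with earlier results of these data known. The interval and difference steps were tested on simulated counts.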

Additional observations from a re-analysis of the deposited data

How the results depend on the processing

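The number of members at or above 1 TPM was 35 and ranged from 32 to 38 over 4 alternatives (0.5 and 2 TPM, the second transcript table, TPM rescaled to protein-coding genes), and was 35 without replicate 1 and 36 without replicate 2. For the member that led its class in the gene table, the class share was also taken by the second transcript table. It was 16.2% for Pde2a among phosphodiesterases (21.9% in the gene table), 46.5% for Atf1 among CREB factors (39.6%) and 40.5% for Crtc2 among coactivators (50.2%). In the second table Pde8b had a higher mean level than Pde2a, and Crtc3 than Crtc2. The other 5 classes stayed within the spread of the libraries. Members past 1.5-fold in replicate 1 and in replicate 2, 1 and 5 under TMM, numbered 12 and 3 with total counts (24.9% and 8.96% of all genes), 10 and 4 with spike-ins (20.05% and 9.67%), 14 and 1 with log2(TPM + 1) (18.3% and 6.71%), 17 and 2 with log2(TPM + 0.1) (31.4% and 8.32%), 2 and 6 with no count filter (21.9% and 20.7%), 3 and 4 in the second transcript table (9.0% and 13.9%; Pde8b, Adcy1 and Pde2a the 3), and 0 and 3 past 2-fold (2.57% and 8.34%). The median difference of members was 0.39, 0.32, 0.42 and 0.53 under the first 4 of these, with all genes at 0.34, 0.28, 0.31 and 0.41. DESeq2 size factors, a prior count of 5 and a mean count of at least 50 gave 1 in replicate 1 and 4 to 5 in replicate 2. The share of members past the fold in replicate 1 lay above that of all genes with total counts, spike-ins and both TPM settings. It lay below that of all genes in the other settings. The cause of these shifts was not tested. The median coding share was 84.3%, 87.1% by the first transcript table, 82.6% for members of at least 5 TPM, and 82.2% to 84.5% with either replicate left out. Of single members, 33 of 42 levels differed between tables by more than the spread of the libraries, and 14 of 22 leading start shares did between transcript tables; linking starts within 200 bases, added with the start groups after the values were seen, moved 3 (Crem to 34.8%, Pde1b to 46.8% and Prkar1b to 66.0%). No paired analysis was possible because there is 1 group. With 2 libraries, depth limits statements on Adcy8, Pkib, Pde1c and Pde11a.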
